A study of Mus musculus with 18 samples.

Results

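A set of 10 genes of epithelial defence and inflammation was followed in mouse small intestinal organoids treated with an adrenergic agonist: Duox2, Duoxa2, Nox1, Nos2, Lcn2, Pigr, Ccl25, Cxcl1, Tnfaip3 and Nfkbia. They were taken by name from the 55487 genes of the counts table, so that the members are 10 of 55487 genes. The organoids came from female wild-type C57BL/6 mice and were exposed for 4 days to 1 µM norepinephrine (n = 5), to 1 µM UK 14,304 (n = 5), or to the vehicle of either agonist, HCl (n = 4) or DMSO (n = 4). Norepinephrine acts on α- and β-adrenergic receptors, and UK 14,304 is an agonist of the α2-adrenergic receptors. By the mouse numbers in the sample titles, mice 1 to 4 gave a library to each of the 4 groups and mouse 5 gave the agonist libraries alone. Samples with the same mouse number were taken to come from the same animal, and the animal and its culture cannot be told apart. Such cultures hold epithelium without immune cells, nerves or microbes.

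The intestinal epithelium defends its surface with oxidants, secreted proteins, antibody transport and signals to immune cells. NADPH oxidases of the Nox and Duox family pass electrons across the membrane to oxygen and make superoxide or hydrogen peroxide, and the inducible nitric oxide synthase makes nitric oxide from arginine. Many genes of this defence are switched on by NF-κB, a transcription factor that is held in the cytoplasm by inhibitor proteins and released when microbial sensors or cytokine receptors fire. NF-κB also switches on its own inhibitors, which ends the response.

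Total counts per library ran from 21866149 to 27850373. Levels are given as counts-per-million values (CPM), the counts of a gene relative to all counts of its library, scaled for the composition of the libraries, and a gene passed the test when its adjusted p in edgeR's quasi-likelihood test was under 0.05 over all 15247 genes with enough counts. Of the 10 members, 9 were tested and Cxcl1 had too few counts. All 10 epithelial marker genes were tested, and their summed level was 8040 to 9128 CPM over the libraries. The 10 leukocyte markers summed to between 5.32 and 7.69 CPM, and 4 of them had enough counts to be tested. Itgam (mean 3.01 CPM), Cd68, Ptprc, Csf1r and Fcer1g were counted in every library. Adgre1 was at 0 in every library, Cd79a in 6 of 18, Jchain in 9, Cd3e in 11 and Mpo in 16. None of the 8 fibroblast and muscle markers had enough counts to be tested, and Dcn and Lum were at 0 in every library. The agonist libraries of mouse 4 stood apart: the norepinephrine library departed from a fit of group and mouse by 0.298 (root mean square, log2 CPM), and the UK 14,304 library by 0.279, against 0.205 to 0.235 in the other 16. Results for the members are therefore also given without either or both of them. Each of these choices rests on values that had been seen, since the libraries were singled out by their departure from that fit. Leaving out the libraries that depart most from a fit lowers the spread left by it. Calls gained in this way, here and below, therefore cannot be read as a result about the members.

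None of the 9 tested members passed the test under norepinephrine, where 0% of all tested genes did, and none passed under UK 14,304, where 0.0394% of all tested genes did. Before adjustment, 0 members had a p under 0.05 under norepinephrine and 1 under UK 14,304, and the share over all tested genes was 6.18% and 11.2%. In a second model of all 18 libraries the mouse was added as a block, so that differences between mice were fitted along with the groups. Mouse 5 had no vehicle library to set its agonist libraries against. In that model Nox1 alone of the members passed under UK 14,304, against a share of 1.22% of all tested genes, and again 0 members passed under norepinephrine, against 0.105%. With DESeq2, 0 members passed under norepinephrine, against 0% of the genes it gave an adjusted p without the block and 0.241% with it. Under UK 14,304 Nox1 passed with DESeq2 both without the block, against 0.238% of genes, and with it, against 0.77%. The median log2 fold change of the 9 members was -0.15 under norepinephrine and 0.06 under UK 14,304, and over all tested genes it was -0.01 and 0.00. Under norepinephrine 1 member was higher in 4 of 4 mice and 2 were lower in 4 of 4, against 5.32% and 8.26% of all tested genes. Under UK 14,304 these counts were 3 and 2, against 14% and 15.5%. When the effects of the 2 agonists were set against each other, 0 members and 0% of all tested genes passed edgeR's test of the difference with or without the block, and 0 members passed with DESeq2. Before adjustment and without the block 0 members and 1.51% of all tested genes had a p under 0.05 there. In the blocked model 2 members had an unadjusted p under 0.05 for the difference (Nox1 and Duox2). Under each agonist 4 members did in that model. The shares over all tested genes before adjustment were not counted in the blocked model, so these counts cannot be read as a result about the members. Without the norepinephrine library of mouse 4 the counts of members were again 0 when the mouse was left out of the model, against 0% and 0.0726% of all tested genes. With the block they became 2 under norepinephrine (Nox1 and Duox2) and 2 under UK 14,304 (Nox1 and Pigr), and the share over all tested genes rose to 16.7% and 8.08%.

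Without the UK 14,304 library of mouse 4 the counts of members were 0 under norepinephrine (against 0% of all tested genes, and 0.178% with the block), and under UK 14,304 they were 0 without the block (against 0.033%) and 1, Nox1, with it (against 1.28%). Without both libraries Nox1 passed under both agonists even with no block, with a log2 fold change of 0.43 under norepinephrine (SE 0.102, edgeR adjusted p = 0.0249; 6.21% of all tested genes passed) and 0.79 under UK 14,304 (SE 0.101, edgeR adjusted p = 0.00318; 0.0663% passed). With the block Nox1 and Duox2 then passed under norepinephrine (against 18.1%) and Nox1 and Pigr under UK 14,304 (against 4.69%). Both libraries had been picked for their departure from the fit of group and mouse, so the calls gained without them are a description only.

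**Figure D1:**
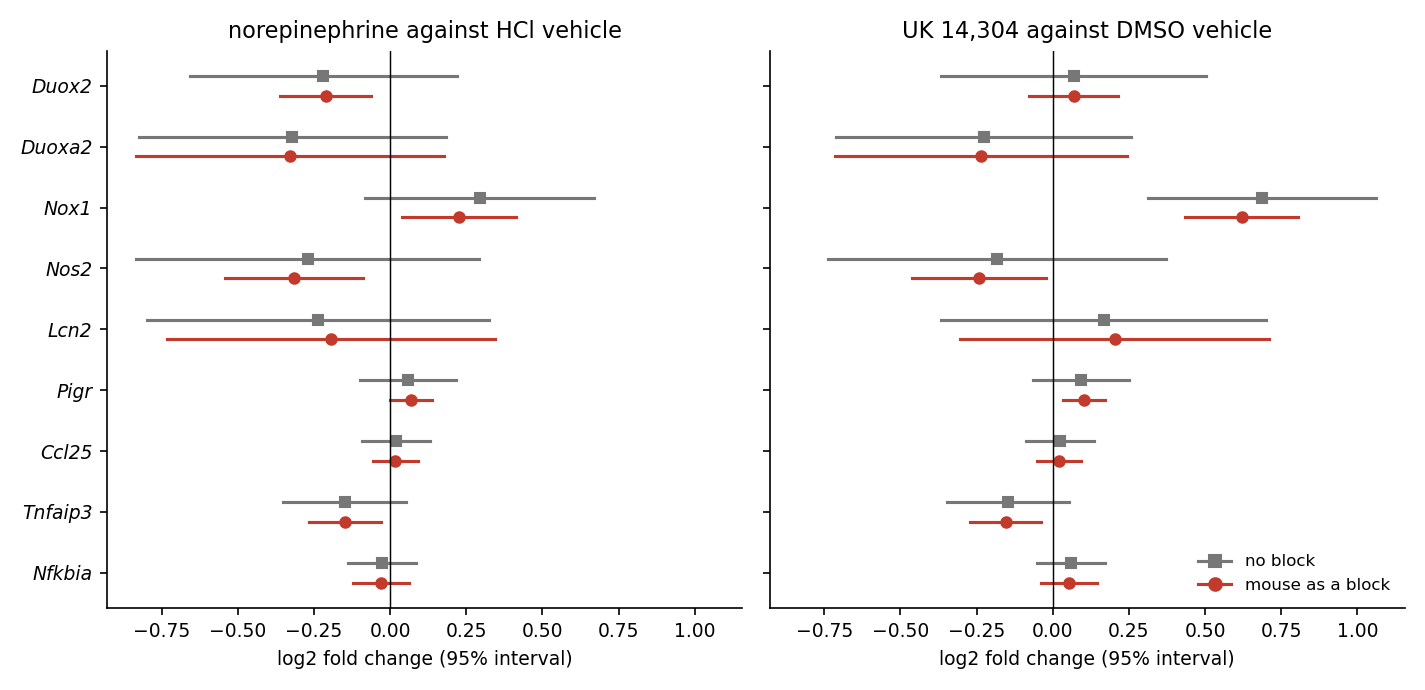
Log2 fold changes of the 9 tested members with their 95% intervals, norepinephrine against HCl vehicle on the left and UK 14,304 against DMSO vehicle on the right. Grey squares are from the model without a mouse term and red circles from the blocked model. The interval of Nox1 under UK 14,304 lies above 0 in both models, with log2 fold changes of 0.69 and 0.62.

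Nox1 encodes an NADPH oxidase of the intestinal epithelium that makes superoxide together with the organizer Noxo1, the activator Noxa1 and the membrane partner Cyba. It had the largest log2 fold change of the tested members, 0.69 under UK 14,304, where it was higher in 4 of 4 mice and rose past the threshold once the mouse was blocked. Nox1 (ENSMUSG00000031257) lies on chromosome X, 134086421 to 134221956 of GRCm38, minus strand. In DMSO vehicle it was at 32.3, 34.0, 32.5 and 27.2 CPM in mice 1 to 4. In UK 14,304 it was at 46.7, 58.9, 53.0, 35.8 and 59.6 CPM in mice 1 to 5. Every UK 14,304 library was above every DMSO vehicle library, a pattern seen in 1.72% of all tested genes. The margin was small at its narrowest, between the UK 14,304 library of mouse 4 and the DMSO vehicle library of mouse 2.

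The group means of Nox1 were 31.5 ± 2.95 CPM (SD, n = 4) in DMSO vehicle and 50.8 ± 9.89 CPM (SD, n = 5) in UK 14,304. The fold change was 1.61 (95% interval 1.24 to 2.09; edgeR adjusted p = 0.235) with no mouse term. In the blocked model it came to 1.54 (95% interval 1.35 to 1.75; edgeR adjusted p = 0.00145), and with DESeq2 without a block the adjusted p was 0.0139. Within mice the UK 14,304 library was at 1.44, 1.73, 1.63 and 1.31 times the DMSO vehicle library in mice 1 to 4. Ribosomal RNA took over 1% of the counts in 3 of 4 DMSO vehicle libraries and in 1 of 5 UK 14,304 libraries (and in 1 of 4 HCl vehicle and 2 of 5 norepinephrine libraries). In mice 1 and 4, where both libraries of the pair were on the same side of 1%, the Nox1 ratios are the 1.44 and 1.31 given above. With that split added to the block the log2 fold change of Nox1 was 0.55 (SE 0.0919, edgeR adjusted p = 0.0124). The adjusted p with the block was between 1.53e-05 and 0.0179 when each of the 18 libraries was left out in turn.

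Under norepinephrine the Nox1 groups overlapped. The HCl vehicle libraries of mice 1 to 4 were at 33.6, 38.1, 28.9 and 27.4 CPM, and the norepinephrine libraries of mice 1 to 5 at 38.8, 44.8, 45.3, 24.3 and 42.9 CPM. Nox1 was higher in mice 1 to 3 and lower in mouse 4, with ratios of 1.16, 1.18, 1.57 and 0.886. The fold change was 1.23 (95% interval 0.945 to 1.59; edgeR adjusted p = 0.717), and 1.17 with the block (edgeR adjusted p = 0.564). Without the norepinephrine library of mouse 4 the log2 fold change with the block was 0.32 (SE 0.0750, edgeR adjusted p = 0.00880), and 0.44 with no block (SE 0.140, edgeR adjusted p = 0.128). These fits leave out the norepinephrine library of the only mouse in which Nox1 was lower. The library was picked after the values had been seen, so the call with the block cannot be read as an effect of norepinephrine. The effect of UK 14,304 on Nox1 exceeded that of norepinephrine by 0.39 on the log2 scale (95% interval -0.13 to 0.92; edgeR adjusted p = 1.00), and with the block by 0.40 (95% interval 0.14 to 0.65; edgeR adjusted p = 1.00).

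**Figure D2:**
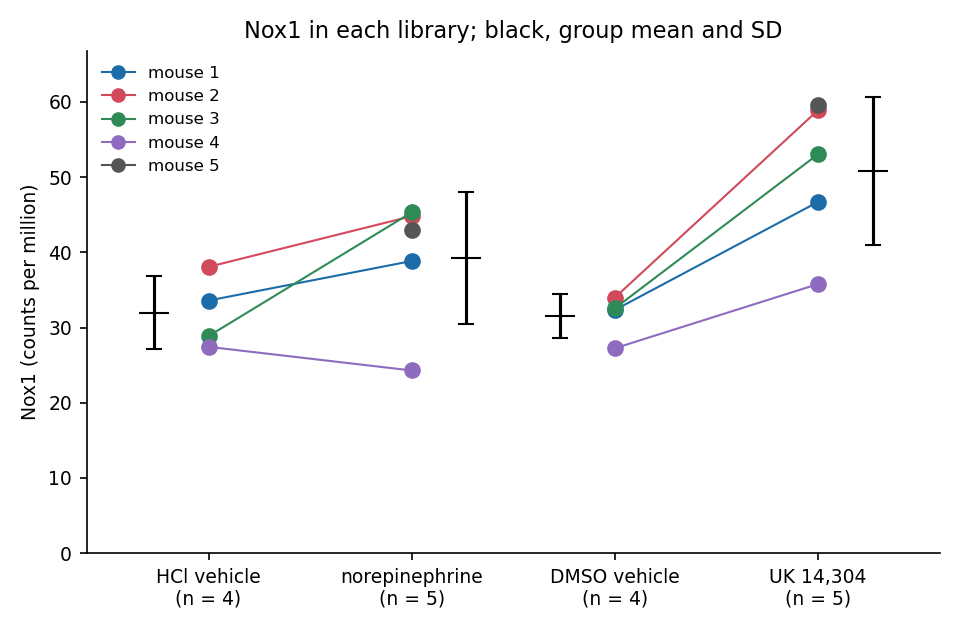
Nox1 in CPM (vertical axis, from 0) in each of the 18 libraries by group, with colours for mice and lines joining the agonist and vehicle libraries of a mouse. Black bars are the group mean and SD. The 5 UK 14,304 libraries sit between 35.8 and 59.6 CPM, all above the 4 DMSO vehicle libraries, while the line of mouse 4 falls under norepinephrine.

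Nox1 shares exon positions with a gene on the other strand. Of its 3307 exon bases 399 (12.1%) also belong to exons of Cstf2, which encodes a cleavage stimulation factor of messenger RNA ends, and the libraries were counted without regard to strand, so that reads of the shared bases cannot be assigned to either gene. Cstf2 had a log2 fold change of 0.10 (SE 0.0531, edgeR adjusted p = 0.493) under UK 14,304 and of 0.03 (SE 0.0532, edgeR adjusted p = 0.881) under norepinephrine. The partners of Nox1 were in a list of 13 further genes of oxidases and nitric oxide, 7 of which were tested and 0 of which passed for either agonist, without or with the block. The 2 genes of that list with the highest levels were Arg2, a mitochondrial arginase, at 79.7 CPM per kilobase, and Rac1, a GTPase that Nox1 needs, at 55.1 CPM per kilobase. Under UK 14,304 their log2 fold changes were 0.10 and -0.02. The gene whose log2 CPM followed that of Nox1 most closely over the 18 libraries was Lacc1 (Pearson r = 0.891, a description over libraries that share mice and groups).

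The stretch before the Nox1 start is shown because Nox1 was the one member that passed the test in the blocked model of all libraries. The RefSeq start lies inside the gene as annotated in the counts table. Promoter sequences came from RefSeq on GRCm38.p6, which had entries for 9 of the 10 members, Nos2 being the one without, and the 250 bases before each start were searched on both strands for 4 motifs. The window of Nox1 is chrX:134111855-134112104, minus strand, and capitals mark the letters GATAA on either strand.
Nox1: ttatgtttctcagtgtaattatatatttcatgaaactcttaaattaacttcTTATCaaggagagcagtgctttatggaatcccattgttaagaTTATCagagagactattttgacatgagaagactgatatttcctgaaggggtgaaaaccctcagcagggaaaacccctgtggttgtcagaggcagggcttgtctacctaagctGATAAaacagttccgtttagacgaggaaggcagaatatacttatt
GATAA occurred 3 times in the Nox1 window, at 199 and 157 bases before the start on the opposite strand and at 45 bases before it as written. It was in none of the windows of the other members and in 22.6% of all 32841 windows. TTTATG, the letters of a Cdx-type site, occurred once, 180 bases before the start. It was also in windows of Ccl25, Cxcl1 and Lcn2, and in 10.8% of all windows. TTCNNNGAA, the letters of a STAT-type site, was in none of the members' windows and in 7.02% of all.

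Duox2 and Duoxa2 make the other oxidase of the list: Duox2 makes hydrogen peroxide at the apical surface and Duoxa2 is the maturation factor that lets it leave the endoplasmic reticulum. Neither passed the test for either agonist. The genes lie head to head on chromosome 2, Duox2 (ENSMUSG00000068452) at 122279247 to 122298449 on the minus strand and Duoxa2 (ENSMUSG00000027225) at 122298900 to 122302885 on the plus strand, with 673 bases between their RefSeq starts. Duox2 was at 25.8, 37.4, 47.6 and 26.9 CPM in the HCl vehicle libraries of mice 1 to 4 and at 25.8, 26.5, 39.7, 26.2 and 29.5 CPM in the norepinephrine libraries of mice 1 to 5. It was lower in all 4 mice, with ratios of 0.997, 0.708, 0.834 and 0.975, of which those of mice 1 and 4 are near 1. The log2 fold change was -0.22 (SE 0.206, edgeR adjusted p = 0.768), and -0.21 with the block (SE 0.0706, edgeR adjusted p = 0.556).

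Under UK 14,304 Duox2 stood at 31.2, 34.5, 45.5, 28.3 and 36.1 CPM in mice 1 to 5, against 30.9, 29.8, 45.5 and 27.5 CPM in the DMSO vehicle libraries of mice 1 to 4. The ratios were 1.01, 1.16, 1.00 and 1.03, and the log2 fold change was 0.07 (SE 0.205, edgeR adjusted p = 0.918). Mouse 3 was the highest in all 4 groups. Without the norepinephrine library of mouse 4, Duox2 had a log2 fold change of -0.24 under norepinephrine with the block (SE 0.0674, edgeR adjusted p = 0.0196), and -0.17 without it (edgeR adjusted p = 0.734).

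Duoxa2 was counted 19 to 53 times per library, 0.872 to 2.04 CPM. Its log2 fold change was -0.32 under norepinephrine (95% interval -0.82 to 0.18; edgeR adjusted p = 0.734) and -0.23 under UK 14,304 (95% interval -0.71 to 0.26; edgeR adjusted p = 0.711), so that counts of this size leave room for a change of either sign. It was lower in 2 of 4 mice under norepinephrine and in 4 of 4 under UK 14,304. Of its 1592 exon bases 682 (42.8%) are shared with Duoxa1 on the other strand, which was counted 87 times over all 18 libraries.

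Nos2 (ENSMUSG00000020826; chromosome 11, 78920787 to 78960254, plus strand) encodes the inducible nitric oxide synthase. It was at 4.47, 8.87, 5.78 and 5.12 CPM in the HCl vehicle libraries of mice 1 to 4, and at 3.54, 6.70, 5.46, 3.79 and 5.62 CPM with norepinephrine in mice 1 to 5. In each of these 4 mice the norepinephrine library was the lower, with ratios of 0.791, 0.756, 0.944 and 0.739, but mouse 2 was the highest of its group in both and the groups overlapped. The log2 fold change of -0.27 (SE 0.268, edgeR adjusted p = 0.776) did not pass, nor did that of -0.31 with the block (SE 0.108, edgeR adjusted p = 0.556). The DMSO vehicle libraries were at 5.10, 8.15, 6.83 and 4.31 CPM and the UK 14,304 libraries at 4.39, 8.29, 4.67, 3.49 and 6.01 CPM. Nos2 was lower in 3 of 4 mice there (log2 fold change -0.18, SE 0.264, edgeR adjusted p = 0.805; with the block -0.24, edgeR adjusted p = 0.297).

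**Figure D3:**
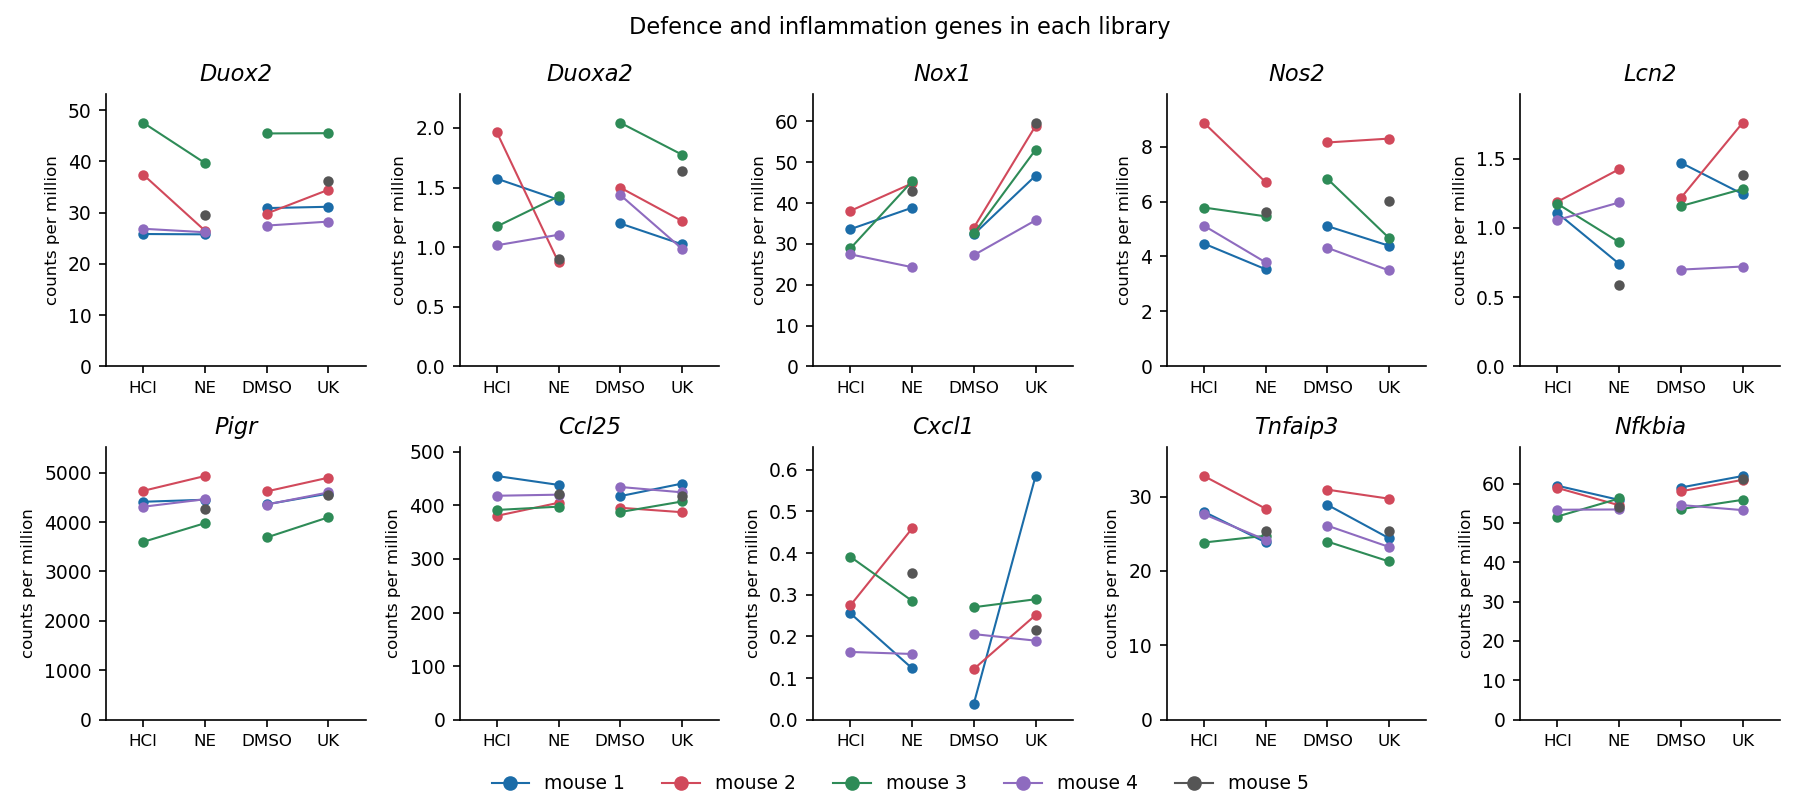
The 10 members in CPM (vertical axes from 0, each with its own scale) in the HCl vehicle (HCl), norepinephrine (NE), DMSO vehicle (DMSO) and UK 14,304 (UK) libraries. Colours mark mice and lines join the agonist and vehicle libraries of a mouse. Mouse 3 is the highest for Duox2 and the lowest for Pigr in every group and mouse 2 the highest for Nos2. Lines of mice cross for several members, among them Duoxa2, Lcn2, Cxcl1, Nox1 and Nfkbia.

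Pigr and Lcn2 stand for secreted and antibody defence. Pigr (ENSMUSG00000026417; chromosome 1, 130826684 to 130852249, plus strand) encodes the receptor that carries dimeric IgA across the epithelium into the lumen, and it had the highest level of the members. The HCl vehicle libraries of mice 1 to 4 held 4410, 4631, 3598 and 4309 CPM of it and the norepinephrine libraries of mice 1 to 5 held 4451, 4931, 3977, 4462 and 4259 CPM. The DMSO vehicle libraries held 4358, 4620, 3688 and 4354 CPM and the UK 14,304 libraries 4576, 4898, 4096, 4599 and 4541 CPM. Pigr was higher in 4 of 4 mice under both agonists, by small amounts: the ratios ran from 1.01 to 1.11 under norepinephrine and from 1.05 to 1.11 under UK 14,304. Mouse 3 was the lowest in every group, and the groups overlapped.

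The log2 fold change of Pigr was 0.06 under norepinephrine (SE 0.0756, edgeR adjusted p = 0.826) and 0.09 under UK 14,304 (SE 0.0757, edgeR adjusted p = 0.621). With the block it was 0.07 (SE 0.0327, edgeR adjusted p = 0.592) and 0.10 (SE 0.0327, edgeR adjusted p = 0.158). Without the norepinephrine library of mouse 4 it was 0.11 under UK 14,304 with the block (SE 0.0303, edgeR adjusted p = 0.0255), and it also passed with the block when the trend of each library on GC content was removed (edgeR adjusted p = 0.0181).

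Lcn2 (ENSMUSG00000026822; chromosome 2, 32384633 to 32388252, minus strand) encodes lipocalin 2, which binds bacterial siderophores and so withholds iron. It was counted 15 to 49 times per library, 0.585 to 1.76 CPM. Its log2 fold change was -0.24 under norepinephrine (95% interval -0.80 to 0.33; edgeR adjusted p = 0.808) and 0.17 under UK 14,304 (95% interval -0.37 to 0.70; edgeR adjusted p = 0.819). The intervals are wide at this depth and hold changes in either direction.

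A list of 18 further secreted defence genes had 7 tested members. Of these 6 were lower and 1 higher under norepinephrine, 7 were lower under UK 14,304, and the median log2 fold changes were -0.22 and -0.17. None passed without the block. With the block Pla2g2a, a secreted phospholipase that attacks bacterial membranes, passed under norepinephrine and Ang4, a ribonuclease of Paneth cell granules, under UK 14,304. Pla2g2a, whose gene carries a known disruption in C57BL/6 mice, was at 15.6, 11.5, 16.5 and 12.6 CPM in HCl vehicle and at 11.8, 8.58, 11.9, 8.24 and 12.7 CPM with norepinephrine, lower in 4 of 4 mice. Its log2 fold change was -0.49 with the block (SE 0.0673, edgeR adjusted p = 0.00205) and -0.40 without it (edgeR adjusted p = 0.713).

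Ang4 was at 189, 125, 208 and 177 CPM in DMSO vehicle and at 175, 113, 176, 125 and 131 CPM with UK 14,304, also lower in 4 of 4 mice. Its log2 fold change was -0.27 with the block (SE 0.0586, edgeR adjusted p = 0.0220) and -0.28 without it (edgeR adjusted p = 0.543). The call was lost when the ribosomal RNA split was added to the block (edgeR adjusted p = 0.0707), without both agonist libraries of mouse 4 (edgeR adjusted p = 0.0974), and when the DMSO vehicle library of mouse 3 or 4 or the UK 14,304 library of mouse 2 or 3 was left out (edgeR adjusted p = 0.116, 0.127, 0.0623 and 0.0522). The highest level of this list was that of Itln1, a lectin of Paneth and goblet cells, at 1085 CPM per kilobase, with log2 fold changes of -0.22 and -0.17 and no call. Paneth cell markers were lower alongside these genes: all 5 had negative log2 fold changes under both agonists, and their summed level was 2602 to 3723 CPM in HCl vehicle, 2151 to 2868 in norepinephrine, 2443 to 3590 in DMSO vehicle and 2187 to 2985 in UK 14,304. Ang4 and Itln1 are themselves 2 of these 5 markers. With the block, Lyz1 passed under norepinephrine and Lyz1 and Ang4 passed under UK 14,304, against 0.105% and 1.22% of all tested genes. None of the 5 passed without the block. Of 5 goblet cell markers 4 had negative log2 fold changes under each agonist (median -0.17 and -0.14), and Agr2 passed under UK 14,304 with the block. Their summed level was 2903 to 4489 CPM in HCl vehicle, 2466 to 4064 in norepinephrine, 2746 to 4431 in DMSO vehicle and 2609 to 4015 in UK 14,304. The part of the Paneth and goblet cell markers in these results was not tested, and in bulk RNA fewer cells of a type cannot be told apart from less RNA per cell.

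Ccl25 and Cxcl1 are chemokines. Ccl25 (ENSMUSG00000023235; chromosome 8, 4325210 to 4360020, plus strand) calls lymphocytes with the receptor Ccr9 to the small intestine. It had the smallest SD relative to its mean of all members, at 381 to 455 CPM over all 18 libraries, with means of 411 ± 33.1 CPM (SD, n = 4) in HCl vehicle, 417 ± 15.9 (SD, n = 5) in norepinephrine, 409 ± 21.2 (SD, n = 4) in DMSO vehicle and 416 ± 19.9 (SD, n = 5) in UK 14,304. The fold change was 1.01 under norepinephrine (95% interval 0.938 to 1.09; edgeR adjusted p = 0.931) and 1.02 under UK 14,304 (95% interval 0.941 to 1.10; edgeR adjusted p = 0.885). Of its 7445 exon bases 204 (2.74%) are shared with Elavl1 on the other strand.

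Cxcl1 (ENSMUSG00000029380; chromosome 5, 90891241 to 90893115, plus strand), which attracts neutrophils, was close to the limit of detection. It was counted 6, 6, 9 and 4 times in the HCl vehicle libraries, 3, 10, 7, 4 and 9 times with norepinephrine, 1, 3, 7 and 5 times in DMSO vehicle and 16, 7, 7, 5 and 5 times with UK 14,304. The means were 0.271 ± 0.0939 CPM (SD, n = 4) in HCl vehicle and 0.275 ± 0.138 CPM (SD, n = 5) in norepinephrine, and a two-sided exact permutation test gave p = 0.984. They were 0.159 ± 0.101 CPM (SD, n = 4) in DMSO vehicle and 0.306 ± 0.160 CPM (SD, n = 5) in UK 14,304, with p = 0.127 in the same exact permutation test, whose smallest possible p is 0.0159 over 126 splits. The highest value came from the UK 14,304 library of mouse 1, and the lowest from the DMSO vehicle library of the same mouse.

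Among 14 further chemokines 6 were tested and 0 passed for either agonist, without or with the block. The 2 with the highest levels were Ccl6 and Ccl9, CC chemokines of neighbouring genes, at 23.3 and 22.3 CPM per kilobase. Ccl6 had log2 fold changes of -0.23 under norepinephrine (SE 0.0898, edgeR adjusted p = 0.713) and -0.29 under UK 14,304 (SE 0.0894, edgeR adjusted p = 0.346). A list of 18 genes of IgA induction and epithelial cytokines had 12 tested members and 0 calls, with median log2 fold changes of 0.02 and 0.09. Il18, a cytokine stored in epithelial cells, led it at 26.3 CPM per kilobase (log2 fold change 0.09 and 0.01), followed by Tnfsf13, a factor that promotes IgA production, at 2.96 CPM per kilobase (-0.04 and 0.02).

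Tnfaip3 and Nfkbia are both induced by NF-κB and hold it back: Nfkbia encodes IκBα, the inhibitor that keeps NF-κB in the cytoplasm, and Tnfaip3 encodes A20, an enzyme that edits ubiquitin chains on the signalling complex upstream. Neither passed the test for either agonist. Their windows before the start are shown with that of Cxcl1, another known target of NF-κB, because these windows and that of Nox1 were the members' windows with matches, with capitals marking matches to the NF-κB consensus on either strand. The windows are chr10:19015411-19015660, minus strand, for Tnfaip3, chr12:55492648-55492897, minus strand, for Nfkbia and chr5:90890995-90891244, plus strand, for Cxcl1.
Tnfaip3: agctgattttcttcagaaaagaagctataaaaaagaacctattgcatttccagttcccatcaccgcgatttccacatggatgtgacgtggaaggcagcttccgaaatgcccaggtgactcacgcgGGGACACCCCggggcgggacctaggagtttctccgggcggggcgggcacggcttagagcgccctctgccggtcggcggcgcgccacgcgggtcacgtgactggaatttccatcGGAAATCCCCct
Nfkbia: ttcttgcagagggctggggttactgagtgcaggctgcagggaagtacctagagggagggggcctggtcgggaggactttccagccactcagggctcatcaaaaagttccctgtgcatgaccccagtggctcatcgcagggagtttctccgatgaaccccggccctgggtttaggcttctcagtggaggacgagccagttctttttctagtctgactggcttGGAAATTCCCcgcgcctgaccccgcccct
Cxcl1: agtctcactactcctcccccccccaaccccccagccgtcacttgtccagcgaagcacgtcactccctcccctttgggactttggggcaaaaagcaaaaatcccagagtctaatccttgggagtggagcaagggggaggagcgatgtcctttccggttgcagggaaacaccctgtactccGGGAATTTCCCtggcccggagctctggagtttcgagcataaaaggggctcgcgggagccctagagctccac
The consensus matched at 125 and 12 bases before the start of Tnfaip3, at 29 bases before that of Nfkbia, and in overlapping matches on both strands 71 and 70 bases before that of Cxcl1. Nox1 had a match 91 bases before its start on the opposite strand, and 7.25% of all windows had at least 1. Tnfaip3 has a second RefSeq start, whose window had no match, and the windows of Duox2, Duoxa2, Lcn2, Pigr and Ccl25 had none.

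Tnfaip3 (ENSMUSG00000019850; chromosome 10, 19000910 to 19015657, minus strand) was at 28.0, 32.8, 23.8 and 27.6 CPM in HCl vehicle and 23.8, 28.4, 24.7, 24.2 and 25.4 CPM with norepinephrine, lower in 3 of 4 mice. It was at 28.9, 30.9, 23.9 and 26.1 CPM in DMSO vehicle and 24.4, 29.7, 21.3, 23.2 and 25.4 CPM with UK 14,304, lower in 4 of 4 mice. The groups overlapped in both comparisons. The log2 fold change was -0.15 under norepinephrine (SE 0.0968, edgeR adjusted p = 0.723; with the block edgeR adjusted p = 0.558) and -0.15 under UK 14,304 (SE 0.0964, edgeR adjusted p = 0.548; with the block edgeR adjusted p = 0.207). Nfkbia (ENSMUSG00000021025; chromosome 12, 55489410 to 55492647, minus strand) varied little, at 51.6 to 61.9 CPM over the 18 libraries. Its fold change was 0.982 under norepinephrine (95% interval 0.909 to 1.06; edgeR adjusted p = 0.895) and 1.04 under UK 14,304 (95% interval 0.965 to 1.13; edgeR adjusted p = 0.662).

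Of the other genes of the NF-κB pathway, 1 passed in the blocked model and 0 without the block. All 15 core genes, the subunits, kinases and adaptors, were tested and 0 passed for either agonist, without or with the block. The 2 with the highest levels were Tab2, an adaptor of the kinase Map3k7, and Chuk, the kinase IKKα, at 28.2 and 22.7 CPM per kilobase. Of 19 further feedback and target genes 18 were tested and 11 were lower under each agonist. Ier3, an early response gene that affects cell survival, passed under UK 14,304 with the block. It was at 8.39, 13.3, 9.06 and 9.86 CPM in DMSO vehicle and 8.04, 8.11, 5.25, 6.71 and 8.30 CPM with UK 14,304. The highest UK 14,304 library, at 8.30 CPM, was only just below the lowest DMSO vehicle library, at 8.39 CPM. The share of all tested genes lower without overlap was not counted, so this gap cannot be set against all genes. Its log2 fold change was -0.52 with the block (SE 0.0949, edgeR adjusted p = 0.00671) and -0.48 without it (edgeR adjusted p = 0.368). The call was lost when the ribosomal RNA split was added to the block (edgeR adjusted p = 0.0547) and when the DMSO vehicle library of mouse 2 was left out (edgeR adjusted p = 0.0621). The 2 feedback genes with the highest levels were Tnip1, a partner of A20, and Otulin, which cuts linear ubiquitin chains, at 16.9 and 15.1 CPM per kilobase, and neither passed. Of 30 sensors and cytokine receptors 28 were tested and 0 passed, with Ltbr, the lymphotoxin β receptor, and Tnfrsf1a, a TNF receptor, at the highest levels (57.5 and 48.0 CPM per kilobase).

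**Figure D4:**
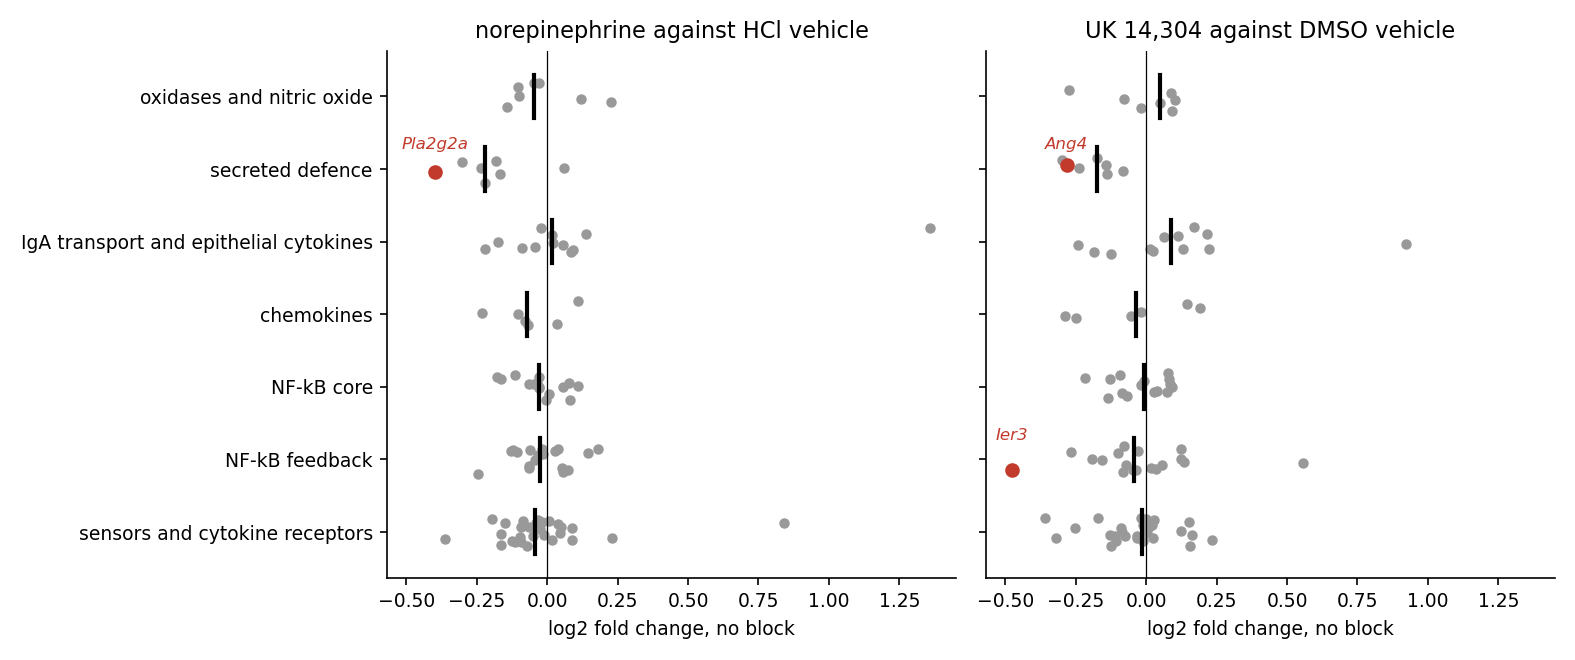
Log2 fold changes (horizontal axis, model without the mouse) of the tested genes of 7 lists that hold no member, by agonist. Each point is a gene, black bars are the medians, and red points with names passed in the blocked model: Pla2g2a under norepinephrine, and Ang4 and Ier3 under UK 14,304.

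Over all 7 lists 93 of 127 genes were tested. In the model without the mouse 33 were higher and 60 lower under norepinephrine and 39 higher and 54 lower under UK 14,304, and 0 passed for either agonist. With the block 1 passed under norepinephrine and 2 under UK 14,304, beside the 0.105% and 1.22% of all tested genes given above.

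Most tested members differed between the mice. In the blocked model, 6 of the 9 tested members differed between the 5 mice, against 13.8% of all tested genes. The edgeR adjusted p of the mouse terms was 3.96e-06 for Duox2, 1.59e-05 for Nos2, 2.98e-05 for Pigr, 0.000908 for Nox1, 0.00130 for Tnfaip3 and 0.0133 for Ccl25. The adjusted p was 0.650 for Duoxa2, 0.511 for Lcn2 and 0.137 for Nfkbia, which did not pass. The test was chosen after the values had been seen. Mouse 3 had the highest mean of Duox2 over its 4 libraries, 44.6 CPM, against 27.2 to 32.8 CPM in the others. Its 4 Duox2 values, 39.7 to 47.6 CPM, were above every library of the other mice. Mouse 3 also had the lowest Pigr, 3598 to 4096 CPM, below every other library.

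Mouse 2 had the highest mean of Nos2, with libraries at 6.70 to 8.87 CPM against 3.49 to 6.83 CPM in the other mice. It also had the highest mean of Tnfaip3, 30.4 CPM. Mouse 4 had the lowest mean of Nox1, 28.7 CPM, and was the lowest of its group in all 4 groups. The mean of mouse 5 (51.3 CPM) rests on its 2 agonist libraries. For Ccl25 the mice differed by little, with means of 392 to 438 CPM.

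**Figure D5:**
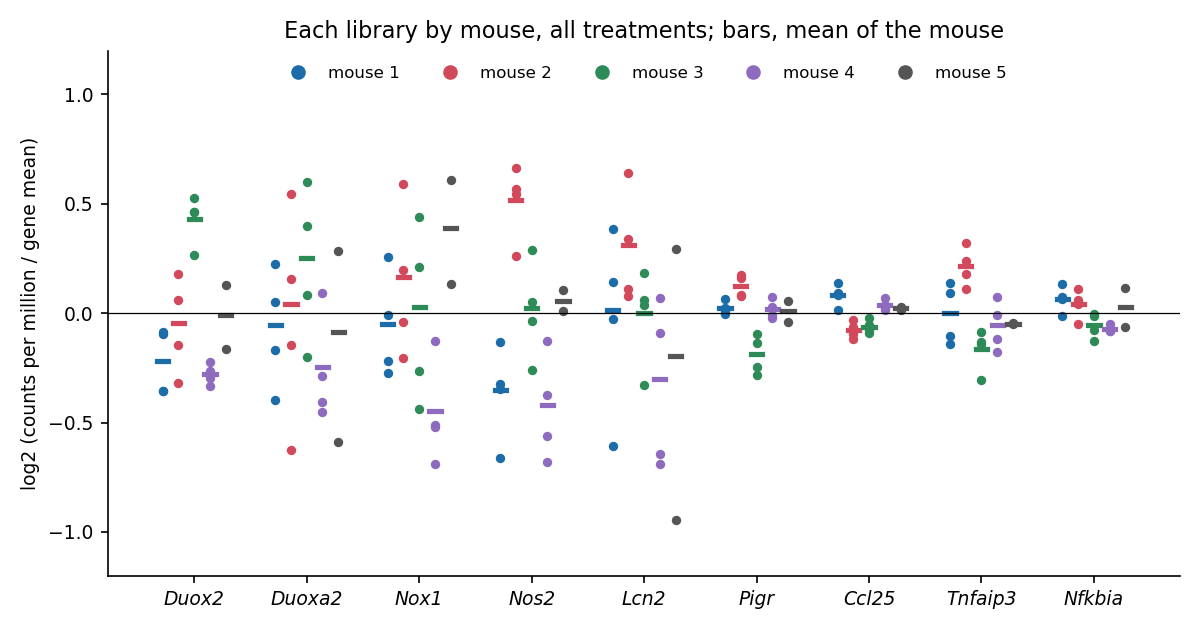
The 9 tested members in each library by mouse, as log2 of the CPM over the mean of the gene in all 18 libraries (vertical axis). Points are libraries of any treatment and short bars the mean of a mouse. The points of mouse 3 lie above all others for Duox2 and below all others for Pigr, and those of mouse 4 lie low for Nox1.

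Levels of different genes were compared per kilobase of exon. The level of Pigr was 1087 ± 88.8 CPM per kilobase (SD over 18 libraries) and that of Ccl25 55.5 ± 2.80, followed by Nfkbia at 35.1 ± 1.97 and Nox1 at 11.8 ± 3.20. Duox2 was at 4.88 ± 1.08 and Tnfaip3 at 3.63 ± 0.418, with overlapping ranges. Nos2 at 1.26 ± 0.367, Duoxa2 at 0.846 ± 0.222, Lcn2 at 0.430 ± 0.116 and Cxcl1 at 0.137 ± 0.0696 CPM per kilobase closed the order, each with a range that overlapped the next. The lengths include exon bases shared with a gene on the other strand, 42.8% for Duoxa2, 12.1% for Nox1 and 2.74% for Ccl25. The order was not corrected for them, which leaves the place of Duoxa2 uncertain. Pigr was at the 99.9th percentile of the tested genes and Lcn2 at the 15.5th.

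The gene whose log2 CPM was most like that of a member over the 18 libraries was Arhgef40 for Duox2 (Pearson r = 0.887), Fxyd3 for Duoxa2 (0.761), Mboat1 for Nos2 (0.875), Slc35e4 for Lcn2 (0.862), Papss2 for Pigr (0.932), Cat for Ccl25 (0.857), Ces2b for Tnfaip3 (0.916) and Zc3h12a for Nfkbia (0.794). These are descriptions over libraries that share mice and groups.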

How the data were processed

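RNA of small intestinal organoids was sequenced in 18 samples, and per the file headers and labels the deposited values are raw counts of reads per gene. The authors made them with STAR 2.7.3 on GRCm38 and featureCounts on exons without strand. The labels name Subread 1.6.4 and the file header a later featureCounts release and Ensembl annotation. All 18 columns were matched to samples by name, with 0 left unused. Samples were grouped by the labelled treatment, and mouse numbers were taken from the titles.

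The quasi-likelihood test of edgeR 4.0.16 (R 4.3.3) was run on TMM-scaled counts after filterByExpr, with a robust fit of the 4 groups to all 18 samples, Benjamini-Hochberg adjustment over 15247 genes and a threshold of 0.05. Precision depends on the total counts, which were 21866149 to 27850373 per sample, and on the spread between samples. Genes with few counts have wide intervals. Alternatives were the mouse as a block, DESeq2 1.42.0, its size factors, other filters on low counts, removal of each library's trend on GC content (known for 15229 tested genes), a split by ribosomal RNA share, fewer samples, a threshold of 0.01 and leaving out each sample or both agonist samples of mouse 4. Samples with the same number in their titles were taken to come from the same animal. For norepinephrine and its vehicle, deviations from the group means correlated by 0.283 on average within mice (lowest 0.119), against -0.07 between mice. For UK 14,304 and its vehicle the values were 0.351 (lowest 0.155) and -0.09. The values within mice cover mice 1 to 4. The scripts were tested on simulated data. Without the block the p-values set differences between groups against the spread between samples. In the blocked model they set them against the spread left after the mouse terms. The test of the mouse terms set differences between mice against that same remaining spread. The model without the block and the exact permutation test of Cxcl1 treated libraries of one mouse as independent.

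The members and lists were chosen with earlier results of these data known. Named are all members, in each list the genes past the threshold without or with the block and the 2 with the highest level per kilobase, and for each tested member the gene most like it. Exon overlaps were taken from the table. A search of the GENCODE M21 transcripts with blastn 2.17.0 (at least 50 bases at 95% identity) found no near copy of a member beyond the overlapping genes. Promoters came from RefSeq (GRCm38.p6). The count of ribosomal RNA, on 1 annotated gene, stayed in the library size.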

Additional observations from a re-analysis of the deposited data

Results flagged for a closer look

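Of 40 pairs of a member and a group, 2 had a library far from the others by Dixon's test at the 95% level, where chance gives about 1 in 20. One was Duox2 in the norepinephrine library of mouse 3, at 39.7 CPM, and mouse 3 was also the highest in the other 3 groups. The other was Cxcl1 in the UK 14,304 library of mouse 1, at 0.585 CPM, which rests on 16 counts.

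Duox2 was lower than its vehicle in 4 of 4 mice under norepinephrine and higher in 4 of 4 under UK 14,304, with a difference between the effects of 0.29 on the log2 scale. The test of that difference did not pass (edgeR adjusted p = 1.00, with the block 0.28 and edgeR adjusted p = 1.00), and 3 of the 4 ratios under UK 14,304 were at or under 1.03.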

How the results depend on the processing

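Without the block 0 members passed under norepinephrine, 0 under UK 14,304 and 0 for the difference between them, and these counts were 0 with DESeq2's size factors, without a filter on low counts, with at least 10 counts in every sample, and at a threshold of 0.01. With an agonist's own vehicle only, where the difference was not fitted, they were 0 for each agonist. Under UK 14,304 the count was 1, Nox1, with the replicate block, with the block and a split by ribosomal RNA share, with the block and the agonist's own vehicle only, in mice 1 to 3 with the block, and with DESeq2 with or without the block, and it was 2, Nox1 and Pigr, with the block and the GC trend removed. Under norepinephrine it was 2, Nox1 and Duox2, in mice 1 to 3. Without both agonist samples of mouse 4, chosen after seeing the data, it was 1 under each agonist, Nox1, and 2 under each with the block. The blocked model changed no other call of a member.

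Over all genes the count under UK 14,304 was 6 without the block and 186 with it. It was 2 at a threshold of 0.01, 22 without a filter, 1 with its own vehicle only, 44 with DESeq2, and with the block 624 with the GC trend removed, 78 with the ribosomal RNA split, 525 with its own vehicle, 508 in mice 1 to 3 and 257 with DESeq2. Under norepinephrine it was 0 without the block, and with it 16, 36 with the GC trend removed, 16 with the ribosomal RNA split, 15 with its own vehicle, 1896 in mice 1 to 3 and 79 with DESeq2. For the difference it was 1 with the block and the GC trend removed, 8 in mice 1 to 3 and 23 with DESeq2 and the block. Without both agonist samples of mouse 4 the counts were 937 under norepinephrine and 10 under UK 14,304, and with the block 2738, 708 and, for the difference, 26. Genes differing between mice numbered 2110, 4264 without both those samples, 1335 at a threshold of 0.01 and 3858 with the GC trend removed.

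Leaving out each sample in turn, without and with the block, gave 2 to 1225 genes under UK 14,304, 0 to 2529 under norepinephrine and 0 to 1 for the difference, with 0 to 2 members under either agonist, and 1503 to 3581 genes differing between mice. The highest counts for the agonists came without the norepinephrine library of mouse 4. Some log2 fold changes near 0 changed sign. With the block and the GC trend removed they were -0.019 for Ccl25 and 0.026 for Nfkbia under norepinephrine and -0.020 for Ccl25 under UK 14,304. Over the samples left out they ran from -0.011 to 0.080 for Ccl25, from -0.059 to 0.015 for Nfkbia and from -0.0057 to 0.11 for Pigr under norepinephrine, and from -0.041 to 0.27 for Duox2 and from -0.0013 to 0.42 for Lcn2 under UK 14,304. The cause of these changes was not tested. Depth limits Duoxa2, Lcn2 and Cxcl1. The intervals of Duoxa2 and Lcn2 leave room for changes of either sign, and no interval was computed for Cxcl1.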
